A study of Mus musculus with 18 samples.

Results

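The interferon response genes are 38 transcripts named by symbol in a fixed list, each found as a row of the raw count table, out of 24111 genes in that table. They encode proteins that bind or degrade foreign RNA, the transcription factors that carry the interferon signal, and effectors of antiviral defence and antigen processing. RNA was sequenced from mpkCCD cells, a mouse cell line derived from the collecting duct of the kidney that responds to vasopressin. Cells grown to confluence on permeable supports spent 24 h in serum-free medium and a further 24 h either without addition (control, 9 libraries numbered 1 to 9) or with 0.1 nM dDAVP (9 libraries with the same numbers). dDAVP, or desmopressin, is an analogue of vasopressin that acts on the V2 receptor. No genotype, transgene or other agent distinguishes the groups, and every library comes from the same line. The libraries are compared over all numbers and within the sets numbered 1 to 3, 4 to 6 and 7 to 9. The labels do not say what separates these sets, nor whether libraries came from separate cultures, so p-values measure the spread between these libraries, which may be technical.

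Type I and type III interferons bind receptors at the cell surface and activate the kinases Jak1 and Tyk2. A complex that contains Irf9 then binds interferon-stimulated response elements in promoters, and Irf1 and Irf7 bind related elements. Foreign RNA is detected in the cytosol by the products of Ddx58 (RIG-I) and Ifih1 (MDA5), which lead to interferon production, and many of the induced genes also have a low level of expression in cells that have met no virus.

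The promoter sequences, which the list did not use, were searched for the interferon-stimulated response element. RefSeq promoter entries on GRCm38.p6, from 250 bases before to 50 bases after the annotated start, were found for 28 of the 38 members. The core of the response element, GAAANNGAAA or TTTCNNTTTC on the other strand, with overlapping matches allowed, occurred in 13 of these 28 members (46.4%) and was not found in the other 15. It occurred in 13 of their 34 promoters (38.2%) and in 1131 of all 32851 promoters of the same length (3.44%). A match is a description of the sequence and does not show binding. The stretches below surround the matches, which stand in capitals, for 5 members whose values carry results: Ifit1, Ifit3, Isg15, Gbp2 and Bst2. Each is written 5′ to 3′ on the strand of the gene and lies upstream of the start. They are chr19:34640745-34640853 (plus strand, Ifit1), chr19:34583333-34583456 (plus, Ifit3), chr4:156200835-156200936 (minus, Isg15), chr3:142620564-142620653 (plus, Gbp2) and chr8:71537547-71537642 (minus, Bst2).
Ifit1: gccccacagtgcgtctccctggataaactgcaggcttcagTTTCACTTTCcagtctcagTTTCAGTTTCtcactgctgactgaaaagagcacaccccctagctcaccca
Ifit3: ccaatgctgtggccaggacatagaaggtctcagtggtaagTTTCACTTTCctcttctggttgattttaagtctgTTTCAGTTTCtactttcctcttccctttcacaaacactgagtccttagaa
Isg15: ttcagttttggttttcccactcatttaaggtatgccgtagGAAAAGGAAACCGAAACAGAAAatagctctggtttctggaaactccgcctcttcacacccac
Gbp2: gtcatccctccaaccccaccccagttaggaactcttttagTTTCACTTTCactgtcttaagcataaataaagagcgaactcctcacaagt
Bst2: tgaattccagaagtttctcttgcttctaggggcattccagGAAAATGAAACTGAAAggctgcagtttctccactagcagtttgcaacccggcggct
Ifit1 and Ifit3 each carry 2 separate matches, Bst2 carries 2 overlapping ones, Isg15 carries 3 overlapping ones and Gbp2 carries 1. The windows of Ifit2, Oasl2, Samd9l and Dtx3l do not hold these letters. Members without an entry were Oas2, Usp18, Dhx58, Zbp1, Mx1, Mx2, Parp9, Parp14, Rtp4 and Ifi27.

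Library totals ranged from 22.2 to 105.9 M counts. Values below are normalised CPM (counts scaled to the library total after TMM scaling) unless FPKM is named, and a count of 3 corresponded to 0.0143 to 0.359 normalised CPM, a limit that covers counting error only. Libraries differed by set in composition: ribosomal protein genes held 20.7 to 28.8% of counts in libraries 1 to 3, 0.861 to 10.2% in 4 to 6 and 10.2 to 16.1% in 7 to 9. The library dDAVP 6 stood apart, with a TMM factor of 0.306, 10282 genes with a count against 11267 or more elsewhere, and 26 members with a count against 30 or more elsewhere. Aqp2, the water channel that vasopressin induces, ranged from 10.9 to 252 normalised CPM in control and from 162 to 2764 in dDAVP libraries. Of 12 collecting duct and epithelial markers, 11 averaged at least 1 normalised CPM, the exception being Elf5. Of 14 leukocyte markers, 6 had no count in any library (among them Cd3e, Itgam and Siglech) and 2 averaged at least 1 normalised CPM (Csf1r and Cd68). Of 8 fibroblast and endothelial markers, 4 had no count in any library and 0 reached that mean. In these bulk libraries fewer expressing cells and less RNA per cell cannot be told apart.

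Most members were expressed at low levels. On the length-scaled FPKM of the deposited table, 7 of the 38 members averaged at least 5 FPKM over the 18 libraries, 13 averaged from 1 to 5 and 18 averaged under 1, with a median member at 1.23 FPKM. In order of mean FPKM the first were Dtx3l (39.6), Bst2 (19.5), Ifi27 (19.0), Isg20 (9.81), Ifi35 (7.66), Irf9 (5.74) and Irf1 (5.33). That order followed the sets, since Dtx3l averaged 117 FPKM in libraries 4 to 6 but 0.540 in 1 to 3 and 1.74 in 7 to 9, and Bst2 averaged 52.0 FPKM in 7 to 9 but 1.90 in 1 to 3. Neighbours in this order were not separated: Bst2 ranged from 0.813 to 73.4 FPKM and Ifi27 from 1.08 to 40.6 over the libraries. At the low end, Mx1, an antiviral GTPase, had 1 count in all libraries together (in dDAVP 8), and Zbp1, a sensor of Z-form nucleic acid, had 90 counts in control 7 and none in the other libraries. Of 15 interferon genes themselves, 14 had no count in any library, and Ifnk had 33 counts in all, 32 of them in dDAVP 6.

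**Figure D1:**
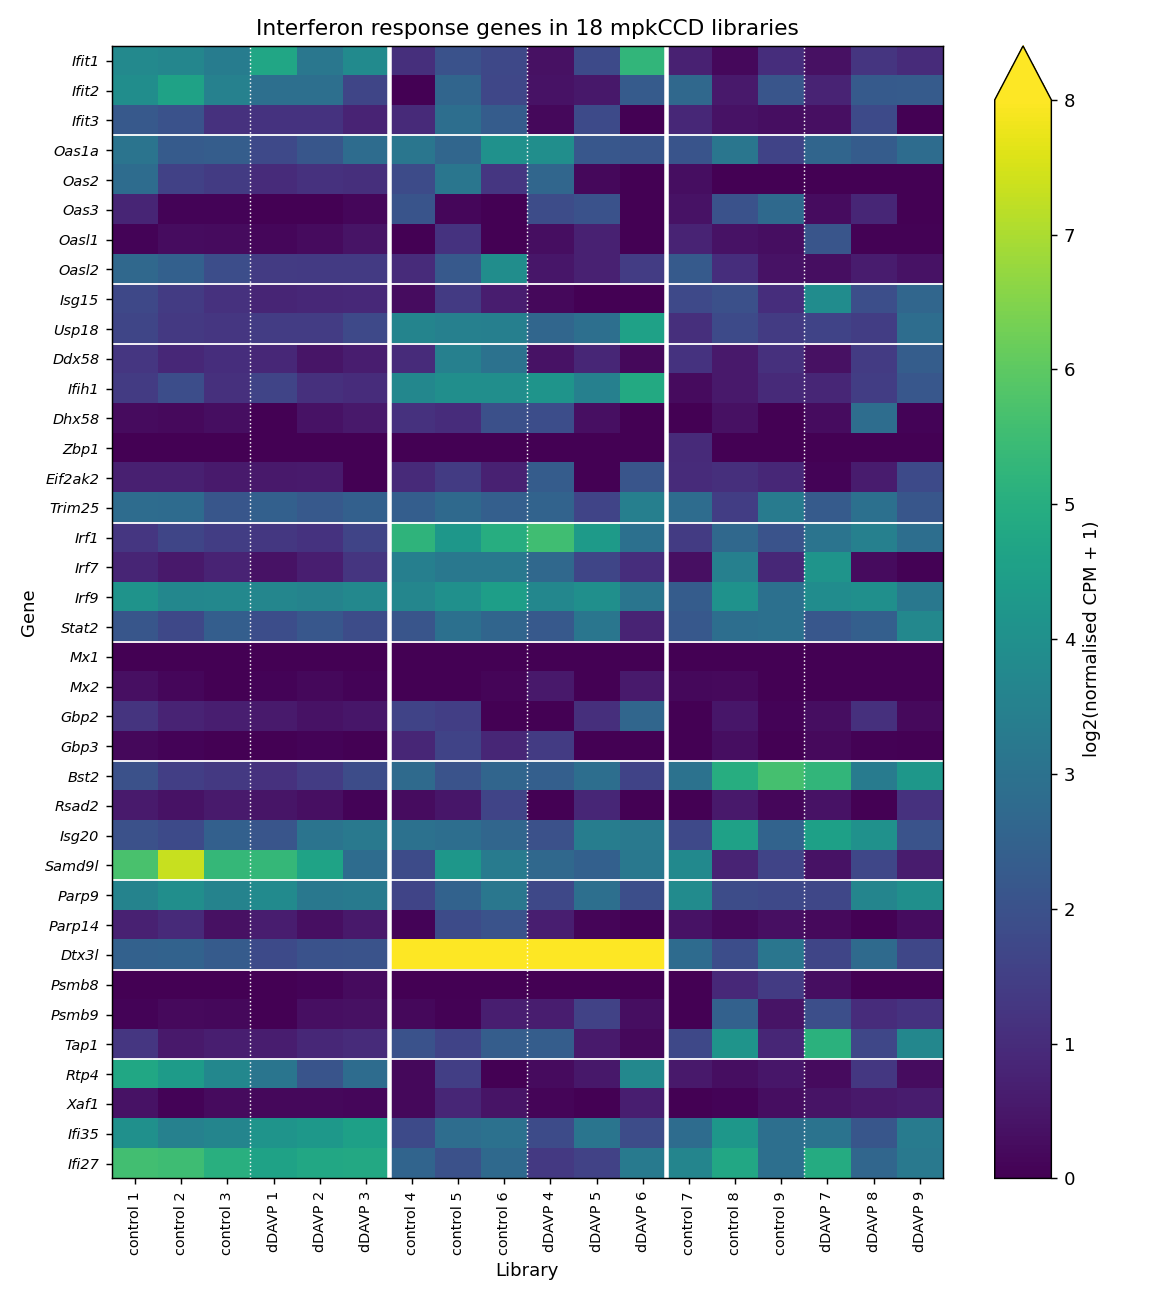
Levels of the 38 members (rows, grouped by role) in the 18 libraries (columns, ordered by set and then by treatment, with thick lines between sets), as log2 of normalised CPM + 1. By the mean of a set, Rtp4, Ifi27 and Samd9l are highest in 1 to 3, Irf1 and Ifih1 in 4 to 6 and Bst2 in 7 to 9, and Dtx3l is above the end of the scale in all 6 libraries of 4 to 6.

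Across all 18 libraries no member was shown to respond to dDAVP. Of the 38 members, 28 passed the filter on low counts, and edgeR's quasi-likelihood test with Benjamini-Hochberg adjustment over all 10121 genes called 0 of them, as it called 0 genes in all (0%). At an unadjusted p under 0.05 there were 2 members, both lower with dDAVP (Oasl2 and Parp14), against 218 of all genes (2.15%, and 1.08% on the lower side). DESeq2 and limma voom also called 0 members. The median log2 fold change was -0.11 over the members and 0.05 over all genes tested, with 16 of 28 members negative. That direction turned with the scaling: with library totals alone the members' median was 0.15, the genes' median 0.24, and 10 of 28 members were negative. Without control 6, 14 of 29 were negative.

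With the set as a term, edgeR called 0 of 28 members and 8 of 10121 genes (0.079%), and 3 members had an unadjusted p under 0.05, all lower with dDAVP, against 6.03% of all genes in either direction and 2.71% on the lower side. These 3 were Oasl2 (log2 fold change -2.17, SE 0.57, edgeR unadjusted p = 0.000835, adjusted p = 0.352), Samd9l (-1.65, SE 0.56, unadjusted p = 0.00726, adjusted p = 0.791) and Oas2 (-1.92, SE 0.89, unadjusted p = 0.0404, adjusted p = 0.815). The members' median was -0.11 and that of all genes 0.02, with 18 of 28 members negative. That direction depended on the sets included: 18 of 27 members were negative without libraries 7 to 9 (median -0.30), 16 of 32 without 1 to 3 (median -0.01) and 13 of 28 without 4 to 6 (median 0.03). limma voom called 0 members. DESeq2 called 1, Oasl2, with an adjusted p of 0.0155 and 0.306% of all genes called, while Oasl2 was negative in all 30 alternatives and its adjusted p ranged from 0.0155 to 1.00 over them.

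In libraries 1 to 3, members of several roles lay below control, though none passed the test. Of 27 members tested, 22 were negative (81.5%, against 50.6% of 8991 genes), and the median log2 fold change was -0.48 against -0.01 over all genes. With single libraries left out it was -0.67 to -0.34, with 20 to 24 of 27 negative, and on log2(FPKM + 1) it was -0.13. edgeR called 0 members and 41 genes (0.456%), and limma voom also called 0 members. At an unadjusted p under 0.05 there were 11 members, 10 lower and 1 higher, against 946 genes (10.5%), of which those lower were 5.05% of all genes. On normalised CPM, all 3 dDAVP libraries lay below all 3 control libraries for 10 members (Dtx3l, Eif2ak2, Gbp2, Ifi27, Ifit2, Isg15, Oas2, Oasl2, Rtp4 and Samd9l), as they did for 6.93% of all genes. They lay above them for 1 (Ifi35), as for 7.47% of all genes. With library totals alone the groups overlapped for Eif2ak2, Gbp2 and Samd9l, since dDAVP 1 was above the lowest control. For Samd9l dDAVP 1 then had 38.4 CPM beside 35.3 and 31.4 in control 1 and 3. The lower side was already known from earlier results of these data and is no independent evidence. DESeq2 called 3 members (Ifit2, Oasl2 and Rtp4) and 1.37% of all genes, and edgeR with the replicate number as a block called 3 (Ifit2, Samd9l and Rtp4), with 101 genes in all (1.12%). edgeR without the library dDAVP 1 called 5 of 27, with Ifit2, Oasl2, Samd9l and Rtp4 lower and Isg20 higher, when the genes called also went from 41 to 774 (8.31%). Without control 1 the members at an unadjusted p under 0.05 were 5, without control 2 they were 6, and without one of the other libraries 8 to 13. Over these 6 libraries the leukocyte markers summed to 2.64 to 5.75 normalised CPM in control and 3.39 to 6.93 with dDAVP, and ribosomal protein genes held 23.3 to 28.8% and 20.7 to 28.5% of counts. Their part in the lower values was not tested.

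**Figure D2:**
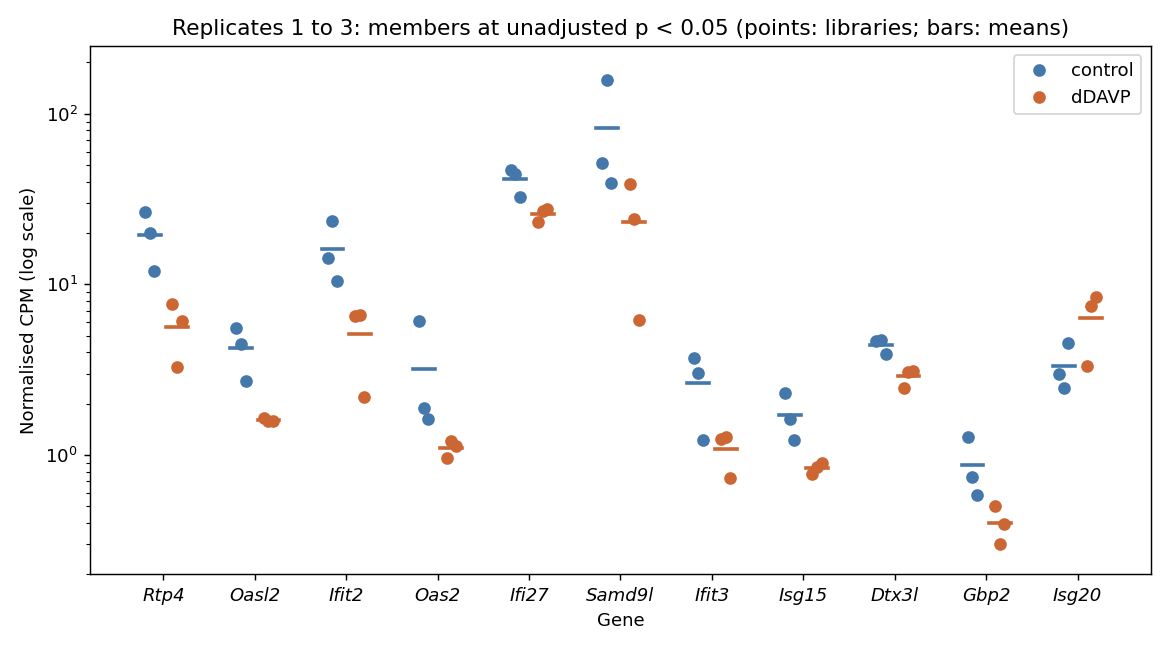
The 11 members with an edgeR unadjusted p under 0.05 in libraries 1 to 3, as normalised CPM on a log axis, with points for libraries and bars for the means of 3. The dDAVP points lie below all control points for 9 members, and overlap them for Ifit3 and Isg20.

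The IFIT proteins bind the ends of foreign RNA. Ifit2 had 14.3, 23.6 and 10.5 normalised CPM in control 1, 2 and 3 and 6.54, 6.65 and 2.20 with dDAVP. The groups did not overlap, and the log2 fold change was -1.70 (SE 0.46, edgeR unadjusted p = 0.00317, adjusted p = 0.215, from 0.00733 to 0.723 over 15 alternatives). Outside this set Ifit2 was lower in level on that scale, with 0 to 5.54 normalised CPM in control 4 to 9 and 0.316 to 3.95 with dDAVP. The groups overlapped in both of these sets. The lower level did not hold for 7 to 9 with library totals alone. There dDAVP 8 and 9 had 11.9 and 10.7 CPM, above dDAVP 1 at 6.44, and control 7 had 12.8, above control 1 and 3 at 9.84 and 8.43. Ifit3 had 3.73, 3.01 and 1.22 normalised CPM in control and 1.24, 1.27 and 0.733 with dDAVP, so that control 3 lay among the treated libraries (log2 fold change -1.34, SE 0.47, edgeR unadjusted p = 0.0143, adjusted p = 0.360). Ifit1, whose promoter is shown above, went the other way: it had 12.6, 11.7 and 9.33 normalised CPM in control and 25.4, 8.04 and 13.3 with dDAVP, with overlapping groups (log2 fold change 0.46, SE 0.41, edgeR adjusted p = 0.694). Its 3 fold changes were positive in all sets, but the one in 1 to 3 turned negative without dDAVP 1, and the one in 4 to 6 (2.61, SE 1.30) rested on dDAVP 6 at 37.6 normalised CPM beside 0.271 and 2.51 in dDAVP 4 and 5. Reads of Ifit genes may be split between near-identical copies, so single values of this family are uncertain.

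The OAS enzymes make the messenger that switches on the RNA-cleaving enzyme RNase L. Oasl2 had 5.56, 4.48 and 2.70 normalised CPM in control 1 to 3 and 1.65, 1.57 and 1.58 with dDAVP, without overlap (log2 fold change -1.47, SE 0.36, edgeR unadjusted p = 0.00166, adjusted p = 0.153, from 0.0288 to 0.591 over 15 alternatives). In libraries 4 to 6 it had 0.995, 3.75 and 14.0 in control and 0.407, 0.647 and 1.68 with dDAVP (log2 fold change -2.83, SE 1.18). In libraries 7 to 9 it had 3.85, 1.08 and 0.324 in control and 0.218, 0.519 and 0.325 with dDAVP (-2.34, SE 1.36). The treated libraries were thus at the low end in each set, but the groups overlapped in 4 to 6 and in 7 to 9. Oas2 had 6.11, 1.90 and 1.62 normalised CPM in control 1 to 3 and 0.961, 1.21 and 1.13 with dDAVP, where control 1 stood above the rest (log2 fold change -1.61, SE 0.51, edgeR unadjusted p = 0.0081, adjusted p = 0.311). It was near 0 in libraries 7 to 9, where its highest value was 0.229. Oas1a, the family member with the highest mean FPKM, ranged from 2.04 to 15.5 normalised CPM in control (median 5.23) and from 2.43 to 14.4 with dDAVP (median 4.05), so the groups overlapped (log2 fold change with the set term -0.20, SE 0.40, edgeR adjusted p = 0.971). Oas1a has tandem copies that can share its reads. Oas3 and Oasl1 were tested only in some sets, had no library above 5.64 and 3.28 normalised CPM, and were at 0 in 4 and 3 libraries.

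Isg15 is a ubiquitin-like protein attached to other proteins, and Usp18 is the protease that removes it. Isg15 had 2.32, 1.63 and 1.22 normalised CPM in control 1 to 3 and 0.778, 0.847 and 0.902 with dDAVP, without overlap (log2 fold change -1.09, SE 0.39, edgeR unadjusted p = 0.0159, adjusted p = 0.371). In libraries 4 to 6 it was at 0.199, 1.55 and 0.563 in control and at 0.136, 0 and 0 with dDAVP, too low to be tested there. In libraries 7 to 9 the fold change had the opposite sign, and on normalised CPM the groups overlapped narrowly. Isg15 had 2.38, 2.84 and 1.09 normalised CPM there in control and 13.8, 2.79 and 5.22 with dDAVP (log2 fold change 1.75, SE 0.92, edgeR unadjusted p = 0.0794, adjusted p = 0.938). The overlap depended on the scaling, since with library totals alone all treated libraries of 7 to 9 lay above control. On FPKM they did so too, with 7.28 in the highest control (control 7) and 11.7 in the lowest treated library (dDAVP 8). Usp18 ranged from 1.11 to 11.1 normalised CPM in control (median 2.20) and from 1.69 to 22.6 with dDAVP (median 2.37), and no set separated the groups.

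Among the GTPases, the other effectors and the genes known mainly for their induction, 4 were lower in libraries 1 to 3 at an unadjusted p under 0.05. Their groups did not overlap on normalised CPM, but those of Samd9l and Gbp2 did with library totals alone. Samd9l, which restricts the growth of some viruses, had 51.3, 158 and 39.1 normalised CPM in control and 39.0, 24.1 and 6.14 with dDAVP (log2 fold change -1.87, SE 0.65, edgeR unadjusted p = 0.0142, adjusted p = 0.360). Control 2 was far above the others, and the highest treated library was just under the lowest control. Samd9l was also lower in level outside this set, at 0.312 to 18 normalised CPM, where its fold changes were -0.82 (SE 0.80) and -2.38 (SE 1.26). Rtp4, a chaperone that carries some receptors to the cell surface, had 26.4, 20.1 and 12.0 normalised CPM in control 1 to 3 and 7.64, 3.27 and 6.09 with dDAVP (log2 fold change -1.83, SE 0.41, edgeR unadjusted p = 0.000773, adjusted p = 0.103, from 0.001 to 0.524 over 15 alternatives). The groups were clearly apart there, but in the other sets Rtp4 was at 1.79 or below in all control libraries and its fold changes were positive, 2.61 in 4 to 6, where dDAVP 6 had 12.3, and 0.77 in 7 to 9.

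Ifi27, a small membrane protein, had 47.1, 44.3 and 32.3 normalised CPM in control 1 to 3 and 23.2, 26.8 and 27.6 with dDAVP (log2 fold change -0.75, SE 0.25, edgeR unadjusted p = 0.0114, adjusted p = 0.346). It had the smallest standard error of these differences, and in 4 to 6 and 7 to 9 its fold changes were -0.12 and -0.08. Gbp2, a GTPase that acts on the vacuoles of intracellular pathogens, had 1.28, 0.738 and 0.586 normalised CPM in control 1 to 3 and 0.503, 0.302 and 0.395 with dDAVP (log2 fold change -1.12, SE 0.49, edgeR unadjusted p = 0.0417, adjusted p = 0.453). Its fold changes were positive in 4 to 6 (0.71) and in 7 to 9 (1.80). The value in 4 to 6 rested on dDAVP 6, at 5.27 normalised CPM beside 0 and 1.11 in dDAVP 4 and 5. With library totals alone the means of Gbp2 in 4 to 6 were 1.10 CPM in control and 0.899 with dDAVP. Of the other GTPases, Mx1, Mx2 and Gbp3 stayed at or below 2.06 normalised CPM, and of these Gbp3 alone was tested for dDAVP, in 4 to 6. Isg20, an exonuclease that degrades RNA, was the member at an unadjusted p under 0.05 on the higher side, with 2.99, 2.48 and 4.51 normalised CPM in control 1 to 3 and 3.34, 7.44 and 8.40 with dDAVP (log2 fold change 0.84, SE 0.36, edgeR unadjusted p = 0.0382, adjusted p = 0.442). dDAVP 1 lay among the control libraries, and the fold change was positive in the other sets too (0.14 and 0.48). With library totals alone, however, the mean of Isg20 in 4 to 6 was 5.44 CPM in control and 4.58 with dDAVP. Bst2, or tetherin, which holds budding viruses at the cell surface, did not separate by treatment in any set (log2 fold change with the set term -0.25, SE 0.38, edgeR adjusted p = 0.958).

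No sensor of foreign nucleic acid and no transcription factor was at an unadjusted p under 0.05 in libraries 1 to 3. Of 4 sensors and partners tested there, 4 were negative with a median of -0.64, and of 4 transcription factors 3 were negative with a median of -0.22. Eif2ak2, the kinase PKR, was the one of these 8 whose groups did not overlap on normalised CPM. It had 0.611, 0.633 and 0.496 normalised CPM in control and 0.458, 0.484 and 0 with dDAVP. These were 10, 12 and 11 counts in control and 10, 8 and 0 with dDAVP, and with library totals alone the groups overlapped. Irf9, the factor with the highest mean FPKM, ranged from 4.00 to 21.2 normalised CPM in control (median 12.4) and from 7.67 to 15.0 with dDAVP (median 12.0), with full overlap (log2 fold change with the set term -0.07, SE 0.31, edgeR adjusted p = 0.987). Trim25, the ubiquitin ligase that acts on RIG-I, ranged from 1.76 to 9.03 in control (median 5.68) and from 2.10 to 10.1 with dDAVP (median 4.44), again with overlap (-0.11, SE 0.38, edgeR adjusted p = 0.981). Tap1, which carries peptides to MHC class I molecules, ranged from 0.475 to 16.6 in control (median 2.03) and from 0.12 to 33.2 with dDAVP (median 0.958), and its log2 fold change with the set term was 0.11 (SE 0.66, edgeR adjusted p = 0.989). The immunoproteasome subunit Psmb8 was at 0 in 13 of the 18 libraries and Psmb9 in 2.

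In libraries 4 to 6, 31 members were tested, edgeR called 0 members and 0 of 10387 genes (0%), and 2 members had an unadjusted p under 0.05, both lower with dDAVP (Ddx58 and Oasl2), against 4.61% of all genes in either direction and 1.14% on the lower side. Ddx58 had 0.995, 10.2 and 7.17 normalised CPM in control and 0.316, 0.809 and 0.12 with dDAVP. On normalised CPM the groups did not overlap, control 4 was close to the treated libraries, and the log2 fold change was -3.93 (SE 1.22, edgeR unadjusted p = 0.00702, adjusted p = 0.999). With library totals alone they overlapped, since control 4 had 0.544 CPM and dDAVP 5 had 0.793. Groups were apart on either scaling for Irf7, with 10.0, 8.15 and 8.11 normalised CPM in control and 5.56, 2.21 and 1.08 with dDAVP (-1.64, SE 0.81, edgeR adjusted p = 0.999). On normalised CPM, 2 members thus lay fully below control against 4.38% of all genes, and 0 lay above against 5.38%. Of the 31 members 20 were negative, with a median of -0.40 against -0.03 over all genes. That median moved with single libraries: it was -0.74 without control 4 and -0.66 without dDAVP 6 (28 of 34 negative), but -0.14 without control 5 (18 of 31) and -0.20 without control 6 (18 of 32). With library totals alone the members' median was -0.72 and that of all genes -0.38. DESeq2 and limma voom called 0 members.

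In libraries 7 to 9, 33 members were tested, edgeR called 0 members and 0 of 11367 genes (0%), and 1 member had an unadjusted p under 0.05, against 5.19% of all genes. This was Dhx58, or LGP2, a helper of the RNA sensors, with 0.0208, 0.276 and 0 normalised CPM in control and 0.203, 6.23 and 0.0499 with dDAVP. Its log2 fold change of 4.53 (SE 2.04, edgeR unadjusted p = 0.0445, adjusted p = 0.938) rested on dDAVP 8. The balance of signs was the reverse of that in the other sets, with 12 of 33 members negative and a median of 0.48, against -0.03 over all genes. It was smaller without control 7 (0.22), control 9 (0.19), dDAVP 7 (0.21), dDAVP 8 (0.27) or dDAVP 9 (0.17), was 0.64 without control 8, and was 0.07 with the replicate number as a block, where 15 of 33 were negative. With library totals alone the members' median was 1.06 and that of all genes 0.54. On normalised CPM, all treated libraries lay above control for 2 members, Irf1 and Xaf1 (4.56% of all genes), and below it for 0 (4.43%). With library totals alone they also lay above control for Isg15 and, narrowly, for Ifih1. For Ifih1 the lowest treated library then had 1.07 CPM and the highest control 1.06. Irf1 had 1.62, 5.52 and 3.14 normalised CPM in control and 7.46, 10.1 and 6.43 with dDAVP (log2 fold change 1.22, SE 0.82, edgeR adjusted p = 0.938). DESeq2 and limma voom called 0 members.

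Set side by side, the 10 members lower in libraries 1 to 3 at an unadjusted p under 0.05 were negative for 6 of the 9 tested in 4 to 6 (median -0.77) and for 5 of the 9 tested in 7 to 9 (median -0.08). In a fit of libraries 4 to 9 alone with the set as a term, 6 of 9 were negative with a median of -0.44. Among all members tested, 64.5% were negative in 4 to 6 and 36.4% in 7 to 9, against 51.9% and 51.1% of all genes. Of 25 members with a value in all sets, 6 were negative in each (Bst2, Ifi27, Ifit2, Oasl2, Parp14 and Samd9l) and 3 positive in each (Ifit1, Isg20 and Usp18), where 13.3% and 12.9% of 8784 genes were. These signs depended on the scaling. By group means with library totals alone, Bst2, Ifi27 and Ifit2 were higher with dDAVP in 7 to 9, and Isg20 and Usp18 were lower in 4 to 6. Oasl2, Parp14 and Samd9l then stayed lower in each set and Ifit1 higher. The test of whether the dDAVP effect itself differed between the sets called 0 of 28 members and 0 of 10121 genes (0%) by edgeR. Isg15 (edgeR unadjusted p = 0.00436, adjusted p = 0.435) and Ddx58 (unadjusted p = 0.0105, adjusted p = 0.546) were the 2 members at an unadjusted p under 0.05, against 6.63% of all genes. DESeq2 called 1, Isg15, with 0.899% of all genes, and limma voom called 0.

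**Figure D3:**
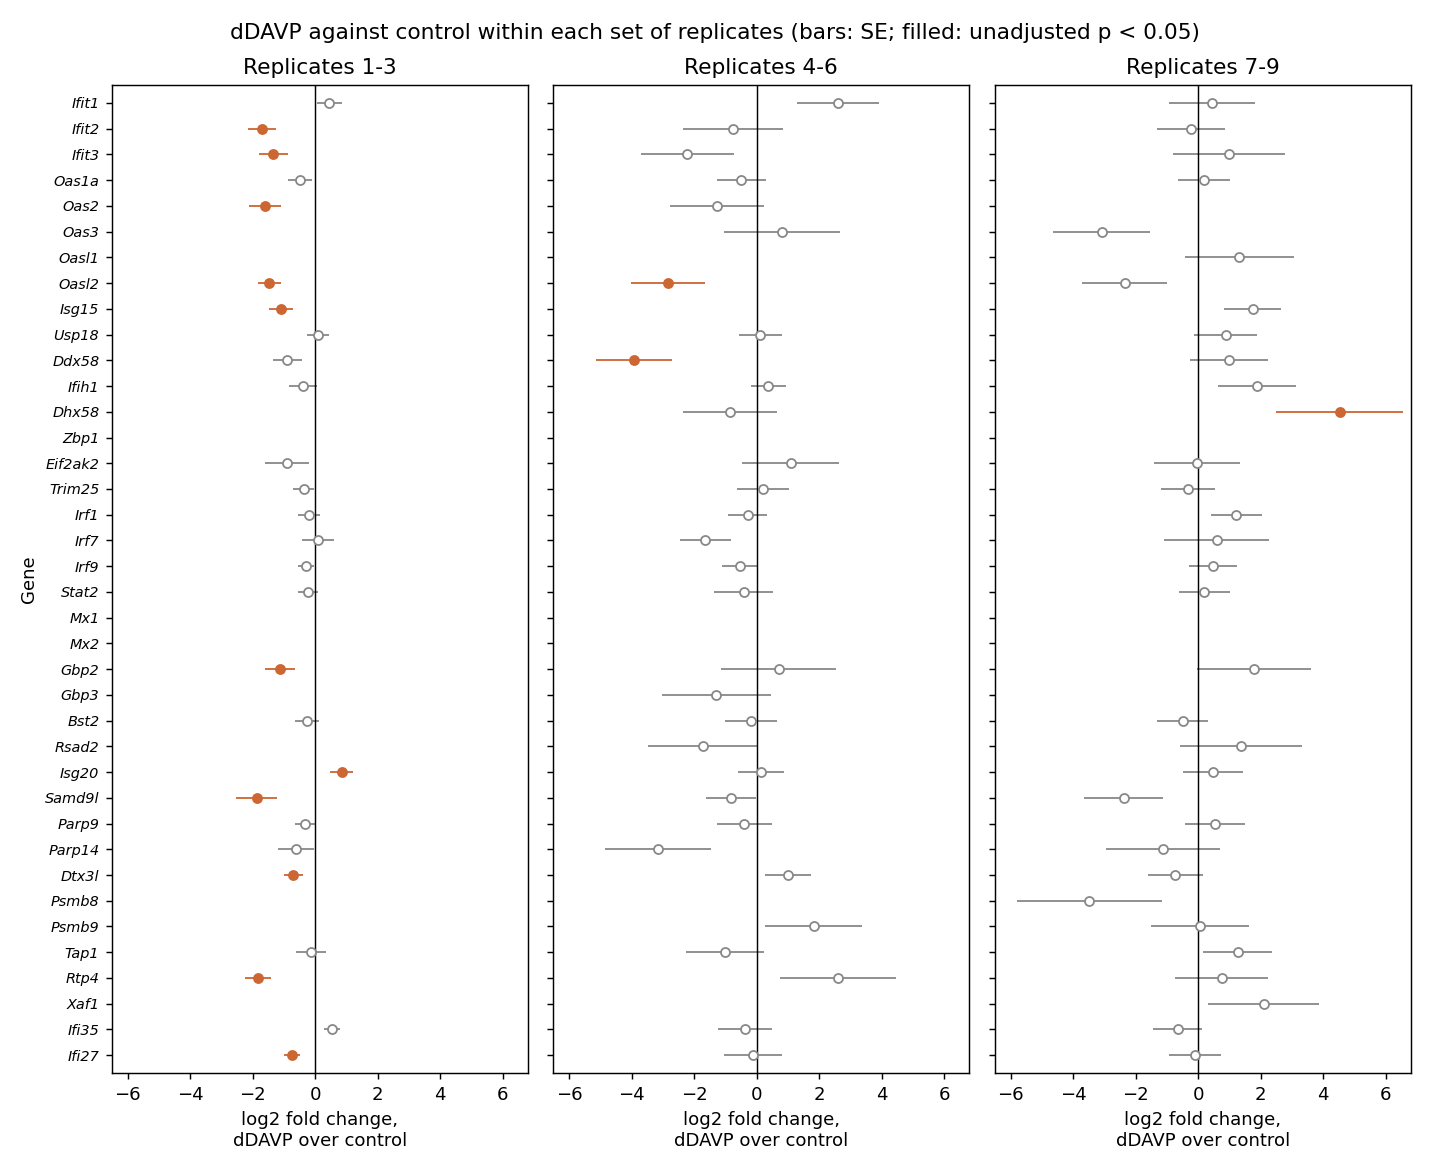
Log2 fold change of dDAVP over control for each member tested, in libraries 1 to 3, 4 to 6 and 7 to 9, with bars for the SE and filled points for an edgeR unadjusted p under 0.05. Points for 22 of 27 members lie left of 0 in 1 to 3, 20 of 31 in 4 to 6 and 12 of 33 in 7 to 9, and the SE are wider in the last 2 sets.

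Between sets of untreated cells some members passed the test. Among control libraries, edgeR called 9 of 33 members between 4 to 6 and 1 to 3, against 37.5% of 11005 genes (20% higher and 17.5% lower), with 5 higher in 4 to 6 (Dtx3l, Irf1, Irf7, Ifih1 and Usp18) and 4 lower (Rtp4, Ifi27, Samd9l and Ifit1). Between 7 to 9 and 1 to 3 it also called 9 of 33, against 49% of genes (28.5% higher and 20.5% lower), with 2 higher in 7 to 9 (Bst2 and Tap1) and 7 lower (Oas2, Rtp4, Ifit1, Samd9l, Ifit3, Ifih1 and Ifi27). Both comparisons use the same controls 1 to 3, and the shares of members called are below those of all genes. The split between higher and lower depended on the scaling in the second: with library totals alone 7 members were higher and 2 lower in 7 to 9, when 4700 genes were higher and 673 lower in place of 3138 and 2259. With library totals alone the first gave 6 higher and 2 lower, with 2651 genes higher and 1207 lower in place of 2202 and 1926. The median of all genes was 0.41 and 0.43 in the 2 comparisons and 0.85 and 1.70 with library totals, and that of the members was 0.65 and -0.49 against 1.10 and 0.81. The calls of Dtx3l, Irf1, Rtp4 and Ifi27 in the first, and of Bst2, Ifit1 and Rtp4 in the second, held under every tool, scaling and filter tried and with each control library left out in turn. The number called was 5 without control 2 in either comparison and 14 without control 7 in the second. Epithelial markers also differed between the control sets: edgeR called 1 of 11 higher and 4 lower in the first comparison, and 3 higher and 4 lower in the second. Cdh1, or E-cadherin, was lower in both (-5.55, SE 0.64, and -4.87, SE 0.62) and Gata3 higher in both (3.22, SE 0.54, and 2.78, SE 0.52). The leukocyte marker Csf1r was higher in 7 to 9 (3.18, SE 0.75, edgeR adjusted p = 0.00336). Ribosomal protein content separates the sets 1 to 3 from the others, and the part of these genes in the differences was not tested. Nothing in the labels gives a batch, so culture, preparation and set cannot be told apart.

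Dtx3l encodes a ubiquitin ligase that works with the ADP-ribosyltransferase Parp9. It had 924, 532 and 586 normalised CPM in control 4 to 6 and 706, 655 and 2687 in dDAVP 4 to 6, but 4.64, 4.75 and 3.92 in control 1 to 3. All 6 libraries of this set were above all 12 others, of which the highest was 7.86 normalised CPM. Its log2 fold change between control 4 to 6 and 1 to 3 was 7.00 (SE 0.65, edgeR adjusted p = 8.85e-06), or 128-fold, the 190th highest of 11005 genes. The count itself showed the step without any scaling, with 13929 to 24313 counts in libraries 4 to 6 and 51 to 1210 in the others. Within libraries 1 to 3, by contrast, Dtx3l had 2.47, 3.08 and 3.10 normalised CPM with dDAVP, below the control values without overlap (log2 fold change -0.70, SE 0.30, edgeR unadjusted p = 0.0363, adjusted p = 0.441). Parp9 did not share the step: its mean was 11.1 normalised CPM in libraries 1 to 3, 4.42 in 4 to 6 and 7.78 in 7 to 9. The ratio of Dtx3l to Parp9 counts was 73.5 to 975 in libraries 4 to 6 and 0.154 to 3.24 in the others.

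Dtx3l lies on chromosome 16 at 35926515 to 35939027 (GRCm38) and Parp9 at 35938470 to 35972621, with 558 shared bases from 35938470 to 35939027. Counts in shared bases cannot be assigned, and the strand setting of the counting is not given in the sources used here. The other neighbours gave means of 0.522, 1.07 and 0.175 normalised CPM for Parp14 and of 0.496, 2.82 and 2.99 for Hspbap1 in the sets 1 to 3, 4 to 6 and 7 to 9. Kpna1, the importin gene on the other side of Parp9, had 10.7, 52.8 and 5.10. No neighbour moved by as much as Dtx3l, and which part of the gene the reads cover was not analysed here.

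Irf1, a factor that also acts downstream of interferon gamma, had 35.9, 18 and 30.7 normalised CPM in control 4 to 6 against 1.41, 2.16 and 1.71 in control 1 to 3 (log2 fold change 3.73, SE 0.63, edgeR adjusted p = 0.000479). All control libraries of the later set were above, and the dDAVP libraries of 4 to 6 were high too, at 45.9, 19.5 and 6.83. Ifih1 had 12.1, 14.6 and 14.4 in control 4 to 6 against 1.65, 2.69 and 1.17 in control 1 to 3 (2.66, SE 0.72, edgeR adjusted p = 0.0109, above the threshold without control 1 or control 3, up to 0.0676). Usp18 had 11.1, 10.3 and 9.89 against 2.20, 1.53 and 1.40 (2.36, SE 0.62, edgeR adjusted p = 0.00915, above the threshold without control 2 or control 3, up to 0.0635). Rtp4 and Ifi27 went the other way between the same controls. Ifi27 had 4.91, 2.98 and 5.60 in control 4 to 6, below all of control 1 to 3 (-3.47, SE 0.59, edgeR adjusted p = 0.000506). Rtp4 had 0.133, 1.79 and 0 in control 4 to 6 and 0.448, 0.229 and 0.395 in control 7 to 9, below every library of 1 to 3 (log2 fold changes -5.00, SE 1.20, and -5.97, SE 1.26, edgeR adjusted p = 0.0054 and 0.00167). Bst2 had 7.01, 30.6 and 48.8 in control 7 to 9, above every control library of 1 to 3 at 2.93 or less (3.62, SE 0.72, edgeR adjusted p = 0.00123).

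**Figure D4:**
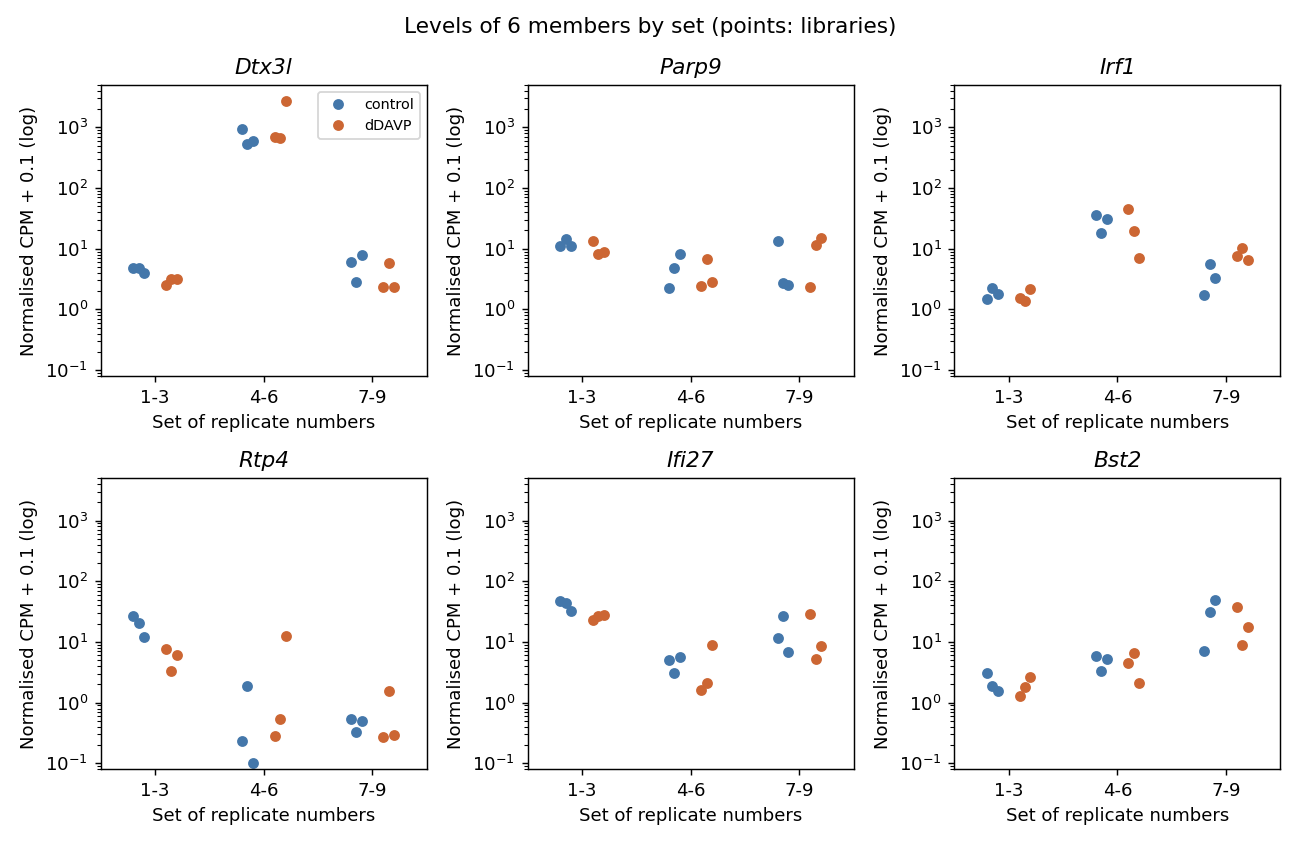
Normalised CPM + 0.1 of 6 members by set on a log axis, with a point for each library and colour for treatment. Dtx3l is above 500 in all 6 libraries of 4 to 6 and under 8 elsewhere, and the 2 highest Rtp4 points are control 1 and control 2.

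The other genes of the pathway did not pass the test for dDAVP either. All 6 interferon receptor genes were expressed and tested, and edgeR called 0 in any dDAVP comparison. In the fit with the set term, 1 receptor gene had an unadjusted p under 0.05. Ifnar2, a chain of the type I receptor, had 48.8 to 204 normalised CPM in control (median 106.1) and 32.3 to 270 with dDAVP (median 72.0), and Ifnar1 had 1.22 to 35.0 and 1.10 to 31.1, so both groups overlapped. With the set term the smallest unadjusted p among the receptor genes was that of Il10rb, a chain shared with the receptor of type III interferons (log2 fold change 0.82, SE 0.34, edgeR unadjusted p = 0.0262, adjusted p = 0.815). Jak2, a kinase of the interferon gamma receptor, was at an unadjusted p under 0.05 in the fit of libraries 1 to 3, with 7.15, 8.23 and 5.5 normalised CPM in control and 4.62, 2.30 and 2.14 with dDAVP, without overlap (log2 fold change -1.22, SE 0.40, edgeR adjusted p = 0.329). It was singled out after its values were seen.

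Of 15 genes that relay virus sensing, 12 were tested with the set term, and edgeR called 0, with 0 at an unadjusted p under 0.05. The smallest p there was that of Tmem173, or STING (log2 fold change 0.89, SE 0.51, edgeR adjusted p = 0.856). Of 10 negative regulators 7 were tested, with 0 called and 0 at an unadjusted p under 0.05, and Ptpn1, a phosphatase, had the smallest p (0.54, SE 0.33, edgeR adjusted p = 0.856). Of 44 further interferon-stimulated genes, 43 were matched and 21 tested. edgeR called 0 of these, with 1 at an unadjusted p under 0.05, Oas1c (1.26, SE 0.57, adjusted p = 0.815), and 13 were negative. Of 13 genes of MHC class I and peptide loading 11 were tested, with 0 called and 0 at an unadjusted p under 0.05, and B2m, the shared light chain, was at -0.63 (SE 0.34, edgeR adjusted p = 0.856). In libraries 1 to 3 the medians of these lists were -0.07 for the receptors, 0.26 for virus sensing, 0.12 for negative regulators, 0.04 for further interferon-stimulated genes and 0.19 for MHC class I, with edgeR calling 0 in each. At an unadjusted p under 0.05 in that set were Tmem173 (0.70) on the higher side and Ube2l6 (-0.82) and Igtp (-0.77) on the lower side, named after their values were seen. The edgeR adjusted p of these 3 were 0.393, 0.431 and 0.474.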

How the data were processed

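RNA from 18 libraries, 9 of control and 9 of dDAVP-treated mpkCCD cells, was measured by sequencing. Per the labels' protocols, 20 ng of RNA entered each preparation and reads were 50 bp, single-end; the protocols describe both a low-input kit and a single-cell procedure without saying which served which library. The authors' deposited count table holds raw counts for 24111 genes. Their deposited FPKM table holds 24076 genes. Per the submitters' processing notes, the tools were STAR 2.4.0.1, SAMtools and HTSeq, with the mm10 build; the annotation release and the strand setting are not given in the sources used here. Columns were matched to samples by name, and groups and replicate numbers came from the sample titles.

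Counts were fitted with edgeR 4.0.16 (R 4.3.3), with TMM scaling, filterByExpr on the groups compared, quasi-likelihood tests, two-sided, and Benjamini-Hochberg adjustment over all genes tested with a threshold of 0.05. The SE of a log2 fold change was its size divided by the square root of F. FPKM values were used for levels between genes and, with limma 3.58.1 on log2(FPKM + 1) and log2(FPKM + 0.1), as an alternative. Other alternatives were DESeq2 1.42.0, limma voom, DESeq2 size factors, library totals, no filter, a filter at 1 CPM, the replicate number as a block, and each library left out in turn. The pathway lists were fitted with the main settings only. Some listed genes are not reported here. Library totals were 22.2 to 105.9 M counts, and 3 counts served as the floor. Fits were tested on simulated data. Descriptions and figures were made with Python 3.11.15.

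The members and lists were chosen with earlier results of these data known. Members were described library by library where their unadjusted p was under 0.05 with the set term or within a set, or where they had the highest mean FPKM of their role; Irf1, Irf7, Ifih1 and Usp18 were added after their values were seen, and other pathway genes were named, up to 3 a list, by calls, then by the smallest p with the set term, then by mean FPKM. Of the 38 members, 28 passed the filter over all libraries. No 2 libraries of the same group were alike within sampling noise, the lowest chi-square per degree of freedom between such a pair being 65.9. Pairs of a control and a dDAVP library were not compared in this way. The labels do not say that equal numbers mark pairs. Deviations from the group means correlated between libraries of the same number at 0.40 to 0.93 across genes, above 0.1 for all 9 numbers. With set means also removed they were at -0.71 to 0.43, and 3 of 9 control libraries correlated best with their own number, so the numbers mark the sets but were not treated as pairs within a set.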

Additional observations from a re-analysis of the deposited data

Results flagged for a closer look

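In 7 of 56 groups of 9 libraries (28 members, control and dDAVP taken separately), 1 library lay far from the other 8 on the scale of log2 (normalised CPM + 1). Chance marks about 1 in 20 groups of like libraries in this way, but each group here mixes 3 sets that differ, so that rate need not apply. The library dDAVP 4 had 14.4 normalised CPM of Oas1a, where the next dDAVP library had 6.04. That flag depended on the scaling: with library totals alone dDAVP 4 had 9.41 CPM, below 16.6 in dDAVP 9 and 12.8 in dDAVP 8. It also had 5.29 normalised CPM of Oas2, where the next had 1.21. For Oas2 dDAVP 4 was still the highest dDAVP library with library totals alone, at 3.46 CPM. The library dDAVP 6, which had the fewest genes with a count, had 22.6 normalised CPM of Usp18, where the next had 6.58. It also had 5.27 of Gbp2, where the next had 1.17. Both flags depended on the scaling, in which its TMM factor was 0.306. With library totals alone dDAVP 6 had 6.93 CPM of Usp18, below 17.3 in dDAVP 9. For Gbp2 it then had 1.61, below 3.68 in dDAVP 8. Rsad2, or viperin, had 2.13 normalised CPM in control 6 and at most 0.496 in the other controls. Control 8 had 22.7 of Isg20 beside 6.83 in the next control, and 16.6 of Tap1 beside 4.09. The 7 flagged values came from 4 libraries, all of them in sets 4 to 6 and 7 to 9.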

How the results depend on the processing

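No member changed sign within a comparison in which it was called. With the set term, where they were not called, Rtp4 kept its sign in 23 of 30 alternatives, Dtx3l in 23 of 29 and Isg15 in 27 of 30. The balance of signs turned, as given above, with library totals over all libraries and for control 7 to 9 (7 higher and 2 lower), over all libraries without control 6, and with the set term without libraries 4 to 6 (13 of 28 negative). With the set term DESeq2 called 1 member (Oasl2) in place of 0. In libraries 1 to 3, DESeq2 called 3, no filter 4 and the replicate block 3, and leaving out single libraries gave 0 to 5, the 5 without dDAVP 1. The replicate block changed no other call, with 0 members called in all other dDAVP fits that could hold it. For the difference between sets DESeq2 called 1 (Isg15). Between control sets, leaving out single libraries gave 5 to 13 members for 4 to 6 and 5 to 14 for 7 to 9, lowest without control 2 and highest without control 8 and control 7. The number of genes called moved too: with DESeq2 from 41 to 123 in 1 to 3 (774 without dDAVP 1, 207 without the filter, 101 with the block, 14, 13 and 15 without control 1, 2 and 3, 24 without dDAVP 2), from 8 to 31 with the set term (12 without the filter, 5 with library totals, 4 on FPKM or without dDAVP 8, 1 with the block), and from 0 to 91 (between sets), 29 (4 to 6), 93 (7 to 9) and 12 (all libraries). Without dDAVP 7 edgeR called 45 genes between sets and 98 in 7 to 9, and without the filter 35 and 30. The 4128 genes of control 4 to 6 became 2728, 2544 and 2614 without control 1, 2 and 3 and 2810 by voom. Set-term fits without 1 set, chosen after seeing the data, called 0 members each. Calls lost in some settings were, for 4 to 6, Ifih1, Usp18, Ifit1, Irf7 and Samd9l, and for 7 to 9, Ifi27, Ifih1, Ifit3, Oas2, Samd9l and Tap1; the cause was not tested. Groups of 3 and members near the floor limit what could be detected.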

Other observations

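Other genes of the pathway also differed between sets of untreated cells, with the main scaling only. Of 11 genes of MHC class I and peptide loading tested, edgeR called 4 between control 4 to 6 and 1 to 3, all lower in 4 to 6: B2m (log2 fold change -2.55, SE 0.64, adjusted p = 0.007), Tapbp (-2.88, SE 0.61), Psme1 (-1.32, SE 0.49) and Psme2 (-2.59, SE 0.61). Between control 7 to 9 and 1 to 3 it called 3 lower, B2m (-3.60, SE 0.67, edgeR adjusted p = 0.000782), Psme1 (-2.85) and Psme2 (-2.91), and 3 higher, H2-Q4 (4.03), Tap2 (4.11) and Psmb10 (3.36). Of 27 further interferon-stimulated genes tested, edgeR called 2 higher and 3 lower in 4 to 6, and 3 higher and 4 lower in 7 to 9. Among them Ifitm2 and Ifitm3, membrane proteins that hinder virus entry, were lower in both later sets: Ifitm3 by -2.85 (SE 0.60) in 4 to 6 and -2.42 (SE 0.59) in 7 to 9. Of 9 negative regulators 3 were higher and 0 lower in 4 to 6, and 5 were higher and 1 lower in 7 to 9. Socs3, a feedback inhibitor of cytokine receptors, was higher in both (4.97, SE 1.33, and 6.00, SE 1.36). Of 13 genes that relay virus sensing, 1 was higher and 1 lower in 4 to 6, and 4 were higher and 1 lower in 7 to 9. Jak1 was lower (-2.57 and -2.29) and Tyk2 higher (2.31 and 3.01) in both. The 2 comparisons share controls 1 to 3, and over all genes edgeR called 37.5% and 49%.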
